A study of Mus musculus with 2 samples.

Results

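The mitosis genes are 40 genes of the G2 and M phases of the cell cycle, chosen by name from the 31053 genes measured, and all 40 had unique molecular identifiers (UMIs) in both libraries. They were followed through subcutaneous tumours of B16F10, a C57BL/6 mouse melanoma line, taken while small. The tumours had grown either in Atf4 WT/WT hosts (called WT below) or in Atf4 Δ/Δ hosts (KO), with 1 library for each genotype, made from a pool of 2 tumours from male and female hosts aged 11 weeks. All hosts carried Rosa26::CreERT2 and received tamoxifen, the WT hosts with intact Atf4 and the KO hosts with floxed Atf4, so the deletion could reach every host cell type, while the injected melanoma cells had their own Atf4 in both libraries. Because there was 1 library per genotype, no difference between genotypes had a replicate check and no test was possible. All intervals are exact, at 95%, and cover counting error only. For sums over members they are too narrow, because UMIs of several members came from the same cells.

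The genes encode the machinery that condenses, aligns and separates chromosomes. In dividing cells their mRNAs build up from late S phase through G2, when the DREAM and retinoblastoma repressors have left their promoters and the B-MYB, MuvB and FOXM1 activators act with NF-Y, and most fall again as cells return to G1 or leave the cycle. The level of such genes in a tissue sample therefore depends both on the number of cells in G2 or M and on the mRNA held by each of them. In a sum over cells, fewer cycling cells and less RNA per cell cannot be told apart. Shares of cells at equal depth are given beside the sums. Less RNA of these genes per cell also makes them harder to detect and so lowers such a share. The shares therefore cannot tell fewer cycling cells from less RNA per cell either, and which of them applied was not tested.

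Barcodes had to show between 200 and 5000 genes and no more than 7.5% of mitochondrial UMIs, which left 3861 WT cells with a median of 3920 UMIs and 3557 KO cells with a median of 6279 UMIs. Each class of cells is a marker gate that used none of the 40 genes, and 10 barcodes occurred in both libraries. The gates held 1738 WT and 1817 KO melanoma cells, 191 and 218 fibroblasts, 64 and 23 endothelial cells, and 863 and 695 macrophages, and 1005 WT and 804 KO cells entered none. Every marker of its own class had a UMI in each gate and library, while Ptprc, the pan-leukocyte marker, stood at 169 and 134 CPM (UMIs of a gene per 1000000 UMIs of the same cells) in macrophages and at 0 to 2.31 CPM in the other classes. Atf4 stood at 262 WT and 39.98 KO CPM in fibroblasts and at 178 and 39.7 CPM in macrophages, against 227 and 208 CPM in melanoma cells. WT endothelial cells had 206 CPM of it and KO endothelial cells 0 UMIs, which allows up to 34.03 CPM (3 UMIs of the class). The WT library had 0 Y-linked UMIs in every class although its label names both sexes, while the KO library had 71 in fibroblasts, 9 in endothelial cells and 133 in macrophages. Haemoglobin genes, the erythroid markers, summed to 42.9 to 1775 CPM in the 4 WT classes and 0 to 0.567 CPM in the KO classes. The part of these last differences in the results below was not tested, apart from the values given for Xist-positive cells without Y-linked UMIs.

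The 40 genes lie on 16 chromosomes, 8 of them on chromosome 2, so they share no locus. RefSeq promoter windows on GRCm38.p6, from 250 bases before to 50 bases after the annotated start, were read for 36 of them, and those of Ccna2, Aurkb, Cdca2 and Tpx2 were not analysed here. Each window of 300 bases was searched on both strands for CCAAT, the box bound by NF-Y, and for TTTGAA, the core of the cell cycle homology region (CHR) bound by MuvB complexes. CCAAT was in the windows of 28 of the 36 genes (77.8%), against 41.1% of all 27025 genes and 42.3% of the 17491 protein-coding genes in the same table. TTTGAA was in 27 of 36 (75%), against 20.2% and 18.5%. Both motifs together were in 23 (63.9%), against 7.97% and 7.40%. Birc5, Nuf2, Nusap1 and Tacc3 held neither. Overlap of the 2 motifs occurred 1 time in the member windows. A match is a description of the letters and does not show that a factor was bound.

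The stretches below give the 150 bases before the start for 7 members of different roles, 5′ to 3′ in the direction of the gene. They are shown to let the number and the place of the motifs be compared, and capitals mark CCAAT and TTTGAA on either strand (ATTGG and TTCAAA on the opposite one). The positions on GRCm38.p6 are Ccnb2 at chr9:70421555-70421704 on the minus strand, Cdk1 at chr10:69352913-69353062 on the minus strand, Aurka at chr2:172370571-172370720 on the minus strand, Plk1 at chr7:122159285-122159434 on the plus strand, Cdc20 at chr4:118437344-118437493 on the minus strand, Ube2c at chr2:164769779-164769928 on the plus strand, Top2a at chr11:99024190-99024339 on the minus strand.
Ccnb2: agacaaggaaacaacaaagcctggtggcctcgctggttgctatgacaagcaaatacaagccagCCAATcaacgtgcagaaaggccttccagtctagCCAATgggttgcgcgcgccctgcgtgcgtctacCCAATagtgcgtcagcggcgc
Cdk1: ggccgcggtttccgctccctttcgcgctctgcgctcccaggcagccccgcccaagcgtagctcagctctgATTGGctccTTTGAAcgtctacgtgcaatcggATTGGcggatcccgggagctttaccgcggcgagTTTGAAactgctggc
Aurka: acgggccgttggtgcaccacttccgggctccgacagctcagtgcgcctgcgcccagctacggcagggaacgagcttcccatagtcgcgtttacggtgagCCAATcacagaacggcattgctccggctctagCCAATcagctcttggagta
Plk1: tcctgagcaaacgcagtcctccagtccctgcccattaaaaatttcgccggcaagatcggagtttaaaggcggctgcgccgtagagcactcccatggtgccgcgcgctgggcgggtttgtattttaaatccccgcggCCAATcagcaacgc
Cdc20: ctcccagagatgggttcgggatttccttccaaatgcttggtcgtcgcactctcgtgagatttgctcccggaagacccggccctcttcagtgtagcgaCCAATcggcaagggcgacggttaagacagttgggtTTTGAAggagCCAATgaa
Ube2c: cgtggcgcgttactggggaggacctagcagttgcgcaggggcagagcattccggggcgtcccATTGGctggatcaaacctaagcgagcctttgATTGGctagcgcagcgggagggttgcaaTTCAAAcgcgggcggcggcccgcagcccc
Top2a: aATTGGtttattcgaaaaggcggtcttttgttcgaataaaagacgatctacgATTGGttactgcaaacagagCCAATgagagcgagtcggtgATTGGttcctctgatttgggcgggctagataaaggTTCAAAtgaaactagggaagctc

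Counted from the start and within the printed stretches, the CCAAT boxes of Ccnb2 began at -87, -54 and -21, those of Cdk1 at -80 and -48, those of Aurka at -51 and -19, and those of Ube2c at -88 and -57. Top2a had boxes on both strands at -149, -98, -78 and -58, without such a repeated distance. Cdc20 had TTTGAA at -18 between boxes at -53 and -8, and Plk1 had a single box at -14. Further boxes lay before the printed stretch in Cdk1, at -208, in Top2a, at -227 and -189, and in Ube2c, at -228, -186, -183 and -155. TTTGAA outside the printed stretch began at -167 and 4 in Ccnb2, at 32 in Aurka, at 30 in Plk1 and at -179 in Top2a. Boxes on the same strand that began 30 to 34 bases apart were in 8 of 36 members (22.2%), namely Cdk1, Ccnb1, Ccnb2, Aurka, Ube2c, Cdca8, Hmmr and Tubb4b, and in 1.33% of all genes and 1.73% of protein-coding genes. The distance was set from boxes seen in some of these same genes, so nothing is read from the 2 shares.

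In melanoma cells the 40 genes together made up 4588 CPM in WT and 3670 CPM in KO, or 0.459% and 0.367% of all UMIs. CPM here counts UMIs at the 3′ end of mRNAs and is not scaled by gene length, so the order of genes is an order of UMIs. The members with the most UMIs were Tubb4b, a beta-tubulin that cells also use outside mitosis, at 385 and 389 CPM, Birc5 (survivin) at 363 and 287 CPM, Top2a, the topoisomerase that untangles sister chromatids, at 356 and 256 CPM, Ube2c, the ubiquitin-conjugating enzyme of the anaphase-promoting complex (APC/C), at 280 and 219 CPM, and Cdk1, the kinase that drives mitotic entry, at 272 and 186 CPM. At the other end stood the checkpoint kinase gene Ttk at 13.2 and 10.4 CPM, then Cdca2, a phosphatase subunit of chromatin, at 25.5 and 17.5 CPM, the kinesin Kif2c at 25.5 and 18.8 CPM, the kinetochore gene Nuf2 at 28.1 and 20.7 CPM, and Ckap2 at 26.8 and 22.8 CPM. Even the lowest member had 257 WT and 205 KO UMIs. In the plot of levels by class, Tubb4b was the highest member and Ttk among the lowest in fibroblasts and macrophages too.

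**Figure D1:**
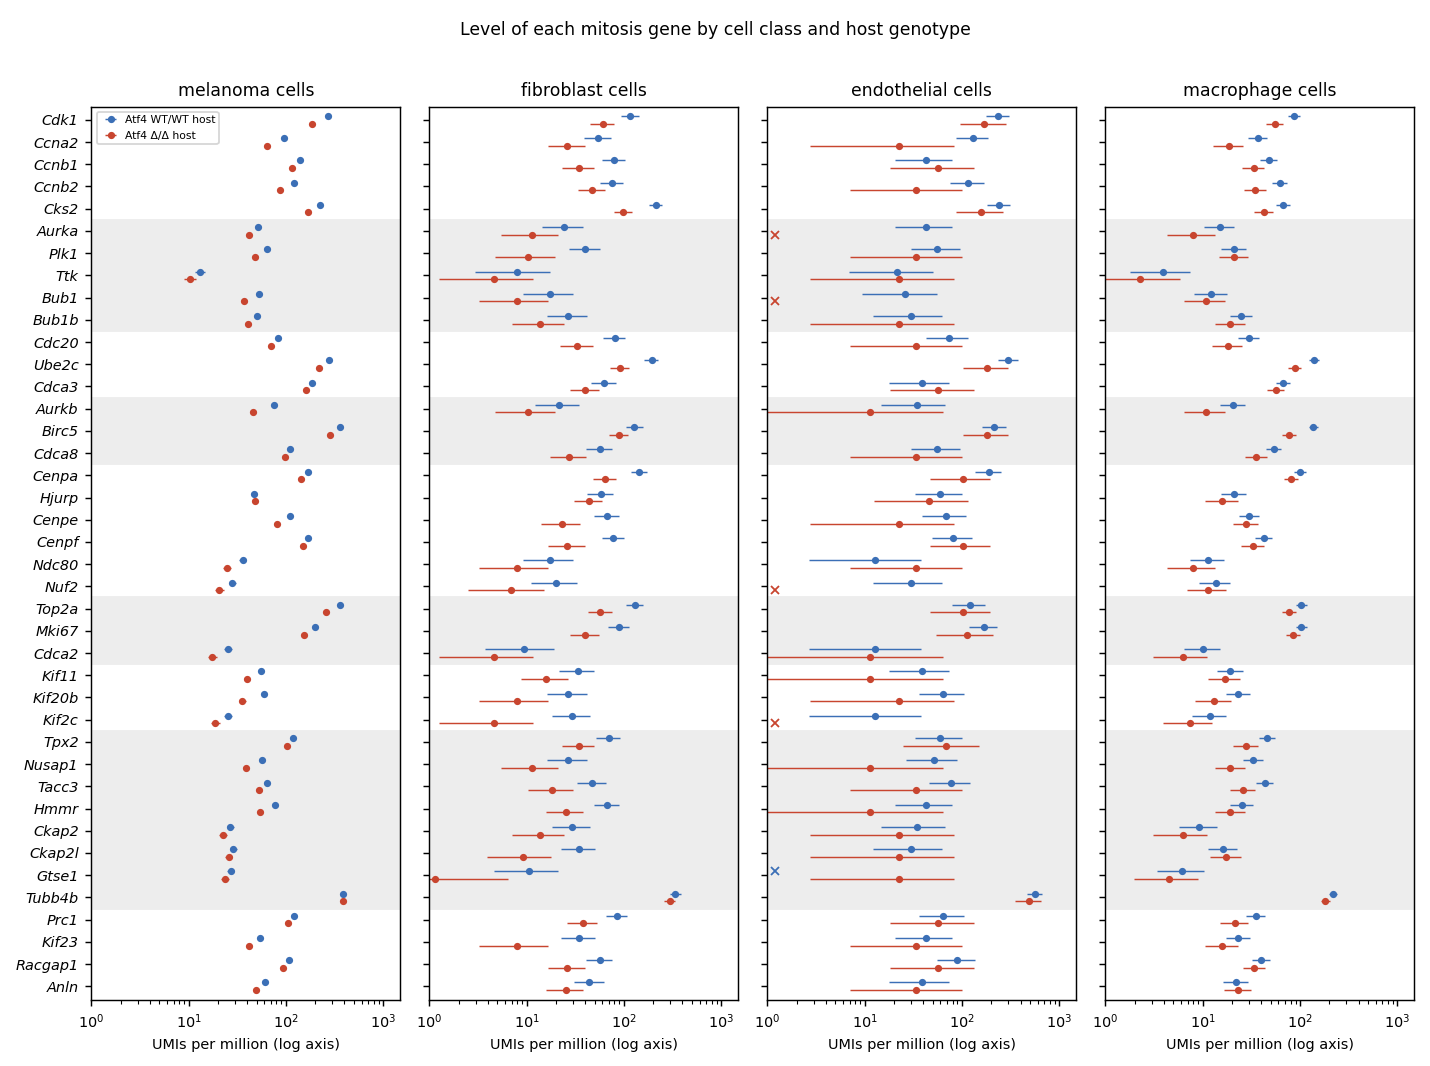
CPM of each of the 40 mitosis genes (log axis) in 4 cell classes, with WT hosts in blue and KO hosts in red. Bars are exact Poisson intervals at 95%, cut at the axis, crosses mark genes with 0 UMIs, and shaded bands separate the roles in the order of the text. Tubb4b, at 385 and 389 CPM in melanoma cells, lies furthest right in each class, and most red points lie left of the blue ones.

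Detection in single cells was compared after each cell had been thinned to 2000 UMIs, which left out 106 WT and 75 KO melanoma cells. At this depth Birc5 had a UMI in 44.9% of WT and 37.3% of KO melanoma cells, Top2a in 34.6% and 25.3%, Cdk1 in 32.2% and 22.8%, and Ttk in 1.90% and 1.55%. A melanoma cell had a median of 5 members in WT and 4 in KO, and the richest cells had 25 and 22. Cells with at least 5 members made up 55.8% of WT melanoma cells (53.4 to 58.3, 911 of 1632) and 44.6% of KO melanoma cells (42.3 to 47.0, 777 of 1742). Their share without thinning was 82.2% and 73.6%. The number of members per cell had no gap at 5, since 382 WT and 351 KO cells had 4 to 6, so this class of cells is a range and not a cell type. Cells with 0 members were 7.97% of WT and 13.6% of KO melanoma cells.

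**Figure D2:**
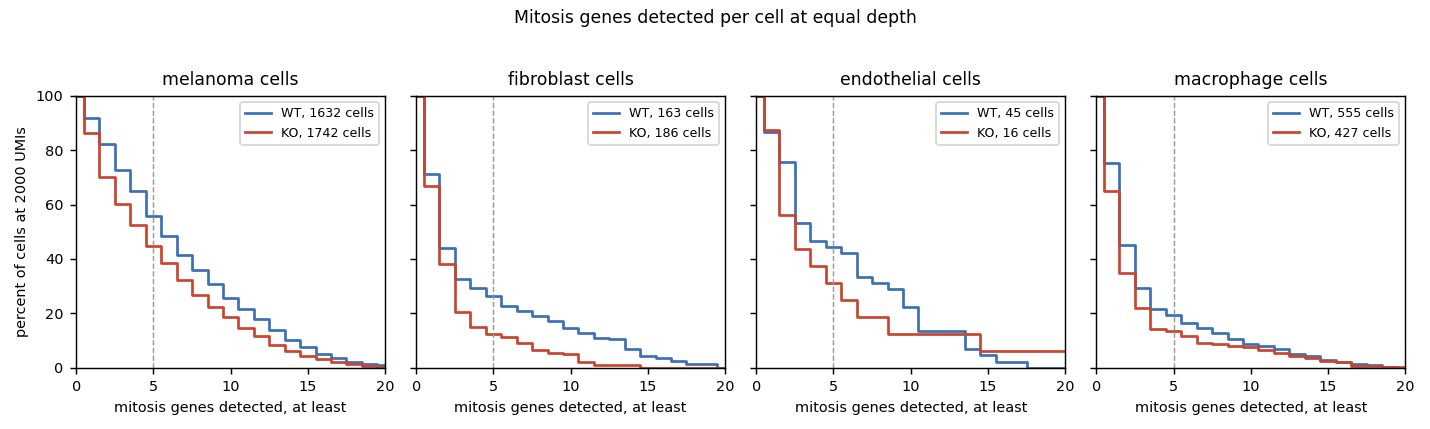
Percent of cells in which at least a given number of the 40 mitosis genes was detected, at 2000 UMIs per cell, for WT (blue) and KO (red) hosts. The dashed line marks 5 genes, where the melanoma curves stand at 55.8% and 44.6% and the fibroblast curves at 26.4% and 12.4%.

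The members were found in the same cells. Of the Aurka UMIs (a spindle pole kinase) in thinned WT melanoma cells, 95.4% were in cells with at least 5 other members, which were 55.8% of the cells, and in KO 82.7% were, against 44.4% of cells. Kif2c had 94.4% and 92.7%, and Prc1, which bundles midzone microtubules, had 93.5% and 89.6%. The lowest were Hjurp, the chaperone that loads the centromeric histone, at 57.1% (48.7 to 65.3) and 61.6% (53.7 to 69.1), and Ccnb2 (cyclin B2) at 68.8% and 69.8%. In WT the Hjurp interval held the share of all cells with 5 other members (55.2%), while in KO it lay above that share (43.9%). Hjurp was therefore the member least tied to the others. Shares at 2000 UMIs rest on 147 and 164 Hjurp UMIs and on 153 and 139 Aurka UMIs.

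Cells with 5 or more members held 13.2 member UMIs per 2000 in WT melanoma cells (12.9 to 13.4) and 12.5 in KO (12.2 to 12.7). Cells with fewer held 2.29 (2.18 to 2.41) and 1.87 (1.79 to 1.96). Both kinds of cell held fewer member UMIs in KO.

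Among the host cells, endothelial cells had the highest sum, with 3599 CPM in WT and 2450 CPM in KO. Fibroblasts had 2737 and 1411 CPM and macrophages 1834 and 1313 CPM. Melanoma markers in these cells corresponded to melanoma RNA at 3.72% to 6.14% of their UMIs, which would carry 162.5 to 262.7 CPM of members. At 2000 UMIs, 26.4% of WT fibroblasts (43 of 163, 19.8 to 33.8) and 12.4% of KO fibroblasts (23 of 186, 8.003 to 17.97) had at least 5 members. The shares were 44.4% (20 of 45, 29.6 to 60.0) and 31.3% (5 of 16, 11.0 to 58.7) in endothelial cells, and 19.3% (107 of 555, 16.1 to 22.8) and 13.4% (57 of 427, 10.3 to 16.95) in macrophages. Thinning left out 28 and 32 fibroblasts, 19 and 7 endothelial cells, and 308 and 268 macrophages.

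Melanoma markers in host cells with 5 or more members were close to those in the rest of the class or below them, except in the 5 KO endothelial cells. In WT fibroblasts the median share of melanoma UMIs was 0.0435% in the 43 cells with 5 or more members and 0.0466% in the other 120, and in WT macrophages it was 0.0670% and 0.0676%, though their summed level was 748 against 730 CPM. In KO macrophages it was 0.0486% and 0.0454%, in WT endothelial cells 0.0356% and 0.0352%, and in KO endothelial cells 0.0459% in 5 cells and 0.0297% in 11. The highest share in any WT fibroblast was 0.151% among those with 5 or more members and 0.245% among the others. The gate itself kept every host cell under 0.3%. DNA replication and S phase genes, which no gate and no cut used, were higher in these cells, at 1337 against 725 CPM in WT fibroblasts and 1522 against 656 CPM in KO fibroblasts. In macrophages the values were 2000 against 965 CPM in WT and 1842 against 720 CPM in KO. Collagen and other fibroblast markers were lower in the fibroblasts with 5 or more members, at 43453 against 50821 CPM in WT and 27500 against 38497 CPM in KO.

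Against melanoma cells of the same library, the sum was lower in each host class. In fibroblasts the log2 ratio was -0.74 in WT (-0.81 to -0.68) and -1.38 in KO (-1.46 to -1.30). In macrophages it was -1.32 (-1.37 to -1.28) and -1.48 (-1.54 to -1.42). In endothelial cells it was -0.35 (-0.45 to -0.25) and -0.58 (-0.78 to -0.39), and with cells thinned to 2000 UMIs the KO value was -0.12, from 16 cells. At least 1.5-fold lower in both libraries were 38 of 40 members in macrophages, against 41.3% of the 9255 genes with at least 100 UMIs, and 26 of 40 in fibroblasts, against 34.5% of 9007 genes. The minimum was passed mainly through the melanoma cells, where the members were high, since 21 members reached 100 UMIs within macrophages over both libraries and 8 within fibroblasts, so these counts are given as a description.

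The main question of the study was what changes in a tumour when the host lacks ATF4, a transcription factor of the stress response. In melanoma cells, 38 of 40 members were lower in the KO library, with a median log2 KO/WT ratio of -0.35 and a range from -0.74 to 0.02. Of all 10112 genes with at least 100 UMIs, 4892 were lower, and their median was 0.01. The sum of members had a log2 ratio of -0.32 (-0.34 to -0.31). For 37 members the counting interval lay below 0, and for 3 it held 0. The same count was not made over all genes, so it is given as a description. Lower by at least 1.5-fold were 3 members of 40, against 2.85% of all genes, and higher by that fold were 0 members, against 5.6% of all genes. The shift was thus broad over members and small for most of them.

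The 3 members past that fold were Kif20b, Aurkb and Ccna2. Kif20b, a kinesin of late mitosis (GRCm38 chr19:34922361-34975745, plus strand, protein coding), had 59.5 WT and 35.8 KO CPM, and its log2 ratio was -0.74 (-0.87 to -0.60). Aurkb, the kinase of the chromosomal passenger complex (chr11:69045647-69051664, plus strand, protein coding), stood at 75.4 and 45.9 CPM, with a ratio of -0.72 (-0.84 to -0.60). Ccna2, cyclin A2 (chr3:36564865-36572150, minus strand, protein coding), stood at 96.3 and 63.6 CPM, with a ratio of -0.60 (-0.70 to -0.50). Next came Cdk1 at -0.55 (-0.61 to -0.49) and the spindle gene Nusap1 at -0.55 (-0.68 to -0.41). The members nearest to 0 or above it were Cenpf, a kinetochore protein, at -0.18 (-0.25 to -0.10), Cdca8 (borealin) at -0.17 (-0.26 to -0.08), Ckap2l at -0.15 (-0.32 to 0.03) and at 0.37 with cells thinned to 2000 UMIs, Tubb4b at 0.01 (-0.03 to 0.06) and Hjurp at 0.02 (-0.12 to 0.15).

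By role, the 3 genes listed as kinesin motors, Kif11, Kif20b and Kif2c, had the lowest log2 ratio of the sum, -0.58 (-0.66 to -0.49). They summed to 141 CPM in WT and 94.6 CPM in KO. Cenpe and Kif23, which are also kinesins, were listed under other roles and stood at -0.45 and -0.35. Cyclins, Cdk1 and its small subunit Cks2 summed to 851 WT and 622 KO CPM, a ratio of -0.45 (-0.49 to -0.42), and all 5 were lower. Within this role Ccnb1 (cyclin B1, 139 and 116 CPM) was at -0.26 and Ccnb2 (120 and 86.8 CPM) at -0.47. The chromatin genes Top2a, Mki67 and Cdca2 stood at -0.43 (-0.48 to -0.39), with Mki67, which coats mitotic chromosomes, at 197 and 155 CPM. The 5 kinases Aurka, Plk1, Ttk, Bub1 and Bub1b stood at -0.39 (-0.45 to -0.32), from -0.51 for Bub1 to -0.31 for Aurka, and Plk1, the polo-like kinase, had 64.6 and 48.4 CPM. These 4 roles held 16 of the 40 members, and every one of the 16 was lower in KO. Over all members 38 of 40 were lower, so this does not set the 4 roles apart.

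The passenger complex (Aurkb, Birc5 and Cdca8) stood at -0.35 (-0.39 to -0.30), but its members ranged from -0.72 for Aurkb to -0.17 for Cdca8. Cdc20, the APC/C activator, at 83.2 and 70.4 CPM, Ube2c and Cdca3 together stood at -0.29 (-0.33 to -0.25). The 6 centromere and kinetochore genes stood at -0.26 (-0.30 to -0.22), where Ndc80, the microtubule-binding outer kinetochore protein, was at -0.53, Cenpe, a kinetochore motor, at -0.45, Nuf2 at -0.44 and Cenpa, the centromeric histone, at -0.24. The cytokinesis genes Prc1, Kif23, Racgap1 and Anln stood at -0.25 (-0.30 to -0.20), all between -0.35 and -0.19. The 8 spindle genes had the ratio nearest to 0, -0.14 (-0.18 to -0.11), and Tubb4b gave 385 of their 782 WT CPM. Without Tubb4b the ratio of the whole sum was -0.36. Among the other spindle genes Hmmr was at -0.51, Tacc3 at -0.26, Ckap2 at -0.23, Gtse1 at -0.21 and Tpx2, which activates Aurora A, at -0.20.

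**Figure D3:**
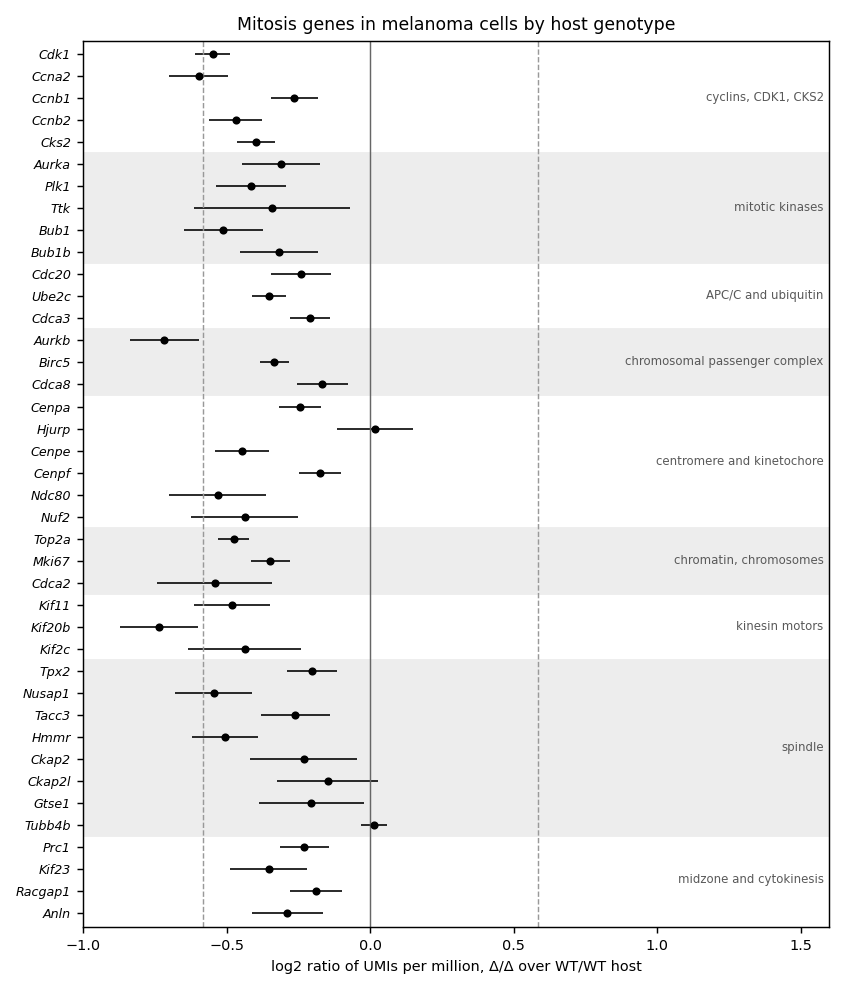
Log2 ratio of CPM in melanoma cells, KO over WT host, for each of the 40 mitosis genes, with exact 95% counting intervals. Dashed lines mark 1.5-fold, bands separate roles, and 38 of the 40 points lie left of 0, with Kif20b at -0.74 and Hjurp at 0.02 as the ends.

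The share of melanoma cells with at least 5 members had a log2 KO/WT ratio of -0.32 (-0.46 to -0.18) at 2000 UMIs and of -0.16 without thinning. Split by the depth of the cells before thinning, the shares were 48.7% and 28.6% for cells of 2000 to 5000 UMIs, 36.1% and 30.1% for 5000 to 10000, 63.9% and 52.6% for 10000 to 20000, and 72.5% and 77.1% above 20000 UMIs. The KO share was the lower one in the first 3 bins. The interval of the ratio held 0 for 5000 to 10000 UMIs (-0.58 to 0.06) and above 20000 UMIs (-0.61 to 0.79), where there were 51 WT and 48 KO cells.

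Targets of ATF4 itself differed in the melanoma cells in the other direction. Of 28 listed targets 27 were measured and all 27 were higher in KO, against 5220 of all 10112 genes with at least 100 UMIs. Past 1.5-fold were 15, against 5.6% of these genes. Among the 15 were Nupr1, a stress-induced chromatin protein, at 19.9 and 106 CPM, Atf5 at 13.7 and 52.6 CPM and Trib3 at 11.7 and 39.7 CPM. These 3 genes were taken after the values had been seen to divide the cells. At 2000 UMIs, 8.46% of WT and 28.4% of KO melanoma cells had a UMI of at least 1 of them. Among cells with such a UMI, 41.3% in WT (33.0 to 50.0, 57 of 138) and 30.7% in KO (26.7 to 35.0, 152 of 495) had 5 or more mitosis genes. Among cells without, 57.2% in WT (54.6 to 59.7) and 50.1% in KO (47.3 to 52.9) did. Cells with these stress genes thus had fewer mitosis genes in both libraries, and the KO share was the lower one in both kinds of cell. Before thinning, cells with such a UMI had median depths of 9948 UMIs in WT and 10405 in KO. Cells without had 11799 and 11284 UMIs, and the part of this depth in the shares was not tested. With the cells left out that had such a UMI at full depth (443 of 1738 in WT and 994 of 1817 in KO), the ratio of the member sum was -0.14, the median over members -0.14 and the ratio of shares -0.07, and 34 of 40 members were lower in KO. The number of all genes lower in KO was not computed for the cells that remained. Their median depth was 11323 UMIs in WT and 10745 in KO.

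In the host cells the sums were lower in KO as well. In fibroblasts the log2 KO/WT ratio was -0.96 (-1.06 to -0.85). Of the 8 members with at least 100 UMIs over both libraries all 8 were lower, against 1241 of all 2361 such genes. Lower by at least 1.5-fold were 6, against 10.1% of these genes, and 0 were higher by that fold, against 8.01%. Cks2 stood at 211 and 98.2 CPM (log2 ratio -1.10, -1.50 to -0.72), Ube2c at 193 and 90.2 CPM (-1.09, -1.51 to -0.69), Top2a at 130 and 57.1 CPM (-1.18), Cenpa at 144 and 64.0 CPM (-1.17), Cdk1 at 116 and 60.5 CPM (-0.94) and Birc5 at 128 and 89.1 CPM (-0.53). Tubb4b, the member with the most UMIs, was at 338 and 295 CPM and had an interval that held 0 (-0.45 to 0.06). Of the 37 members with at least 20 UMIs all were lower, against 3876 of all 7229 such genes. The medians were -1.12 and -0.05. Fewer UMIs stood behind Kif2c, with 22 WT and 4 KO UMIs, and Plk1, with 30 and 9. The share of fibroblasts with 5 or more members had a ratio of -1.09 (-1.89 to -0.33).

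The KO fibroblasts with 5 or more members also held fewer member UMIs, 10.9 per 2000 (9.56 to 12.3) against 14.7 (13.5 to 15.8) in WT, whereas fibroblasts with fewer members held 1.17 and 1.12. The WT figure rests on 43 cells and the KO figure on 23. In Xist-positive fibroblasts without Y-linked UMIs, 154 in WT and 55 in KO, the ratio of the sum was -1.63. The ratio of the share was -1.97, from 35 of 137 WT and 3 of 46 KO cells at 2000 UMIs. No interval was computed for it.

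In macrophages the ratio of the sum was -0.48 (-0.56 to -0.41). All 21 members with at least 100 UMIs were lower in KO, against 2359 of all 4683 such genes. Of the 21, 11 were lower by at least 1.5-fold, against 4.36% of these genes, and 0 were higher by that fold, against 5.02%. Birc5 stood at 137 and 77.7 CPM (-0.82, -1.12 to -0.53), Ccnb2 at 61.8 and 34.6 CPM (-0.84, -1.30 to -0.39), Ube2c at 139 and 88.4 CPM (-0.65, -0.94 to -0.37) and Ccna2 at 36.8 and 18.7 CPM (-0.98, -1.60 to -0.38). Mki67, at 103 and 85.0 CPM (-0.28, -0.58 to 0.02), and Cenpe, at 30.3 and 27.8 CPM (-0.12, -0.68 to 0.43), had intervals that held 0. Plk1, at 21.04 and 20.97 CPM, and Anln, at 21.9 and 23.2 CPM, were the nearest to equal, with fewer than 100 UMIs each. The share of macrophages with 5 or more members had a ratio of -0.53 (-1.02 to -0.05). Such macrophages held 13.8 member UMIs per 2000 in WT (13.1 to 14.5) and 13.9 in KO (12.9 to 14.9), so these intervals overlapped. In the 634 WT and 79 KO macrophages that were Xist-positive without Y-linked UMIs, the ratio of the sum was -1.27.

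Endothelial cells were few, and their ratio of the sum was -0.55 (-0.78 to -0.34) over all cells and -0.23 at 2000 UMIs per cell, while that of the share was -0.51 with an interval that held 0 (-2.28 to 0.95). Of the 16 members with at least 20 UMIs 14 were lower in KO, against 1291 of all 2515 genes with that many UMIs. Cdk1 stood at 236 and 170 CPM (55 and 15 UMIs) and Ube2c at 300 and 182 CPM (70 and 16 UMIs), both with intervals that held 0. The 2 members whose interval lay below 0 were Ccna2, at 128.5 and 22.7 CPM from 30 and 2 UMIs (-2.50, -5.61 to -0.52), and Ccnb2, at 116 and 34.03 CPM from 27 and 3 UMIs (-1.77, -4.13 to -0.07). Aurka, Bub1, Nuf2 and Kif2c had 0 UMIs in KO endothelial cells, which allows up to 34.03 CPM, and Gtse1 had 0 in WT, which allows up to 12.9 CPM. In Xist-positive cells without Y-linked UMIs, 48 WT and 9 KO cells, the ratio of the sum was -1.30. A difference in the share of cells was not detectable with so few cells.

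Among the melanoma cells with 5 or more members, the members did not all stand highest in the same cells. These cells were split in 3 by their summed DNA replication and S phase genes, with 303 WT and 259 KO cells per set, and the upper set was compared with the lower. All members together were lower in the upper set, at 4682 against 7633 CPM in WT and 4783 against 6305 CPM in KO. The ratios of single members were not corrected for this. Cdc20 had the lowest ratio, at 38.0 CPM in the upper and 196 CPM in the lower set of WT (log2 ratio -2.37) and 51.8 and 182 CPM in KO (-1.81). By the mean of both libraries, Cenpa followed at -2.00 and -1.57, then Ube2c at -1.88 and -1.23, Ccnb2 at -1.49 and -1.28, the spindle gene Hmmr at -1.42 and -0.98, Cenpf at -1.40 and -0.97, Ccnb1 at -1.15 and -0.81 and Plk1 at -1.04 and -0.79. These 8 members were richest where S phase genes were low.

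At the other end of the order stood Aurkb, at 118 and 90.0 CPM in WT (0.38, 0.18 to 0.59) and 88.5 and 50.6 CPM in KO (0.81, 0.52 to 1.10), and Top2a, at 531 and 435 CPM (0.29, 0.19 to 0.38) and 484 and 295 CPM (0.71, 0.59 to 0.84). These 2 were the members whose interval lay above 0 in both libraries, while for 21 it lay below 0 in both. The same counts were not made over all genes, so they describe the order of members only. Hjurp was at 0.21 (-0.07 to 0.49) and 0.60 (0.30 to 0.91), and Ccna2 and Mki67 were near 0 in both, at -0.11 and 0.06 and at -0.16 and 0.07. The direction was the same in both libraries for 31 of 40 members, and across the 40 members the ratios of the 2 libraries had a Pearson r of 0.94 and a Spearman rho of 0.92. Members share cells and are not independent, so this is a description. The sets also differed in depth, with medians of 13673 and 11162 UMIs in WT and 13271 and 10441 in KO. The 5 members with the lowest KO/WT ratios in melanoma cells were spread over this order, with Aurkb at the S phase end, Nusap1 toward the other end at -1.29 and -0.47, Kif20b at -0.25 and 0.14, Cdk1 at -0.19 and 0.17, and Ccna2 as given.

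**Figure D4:**
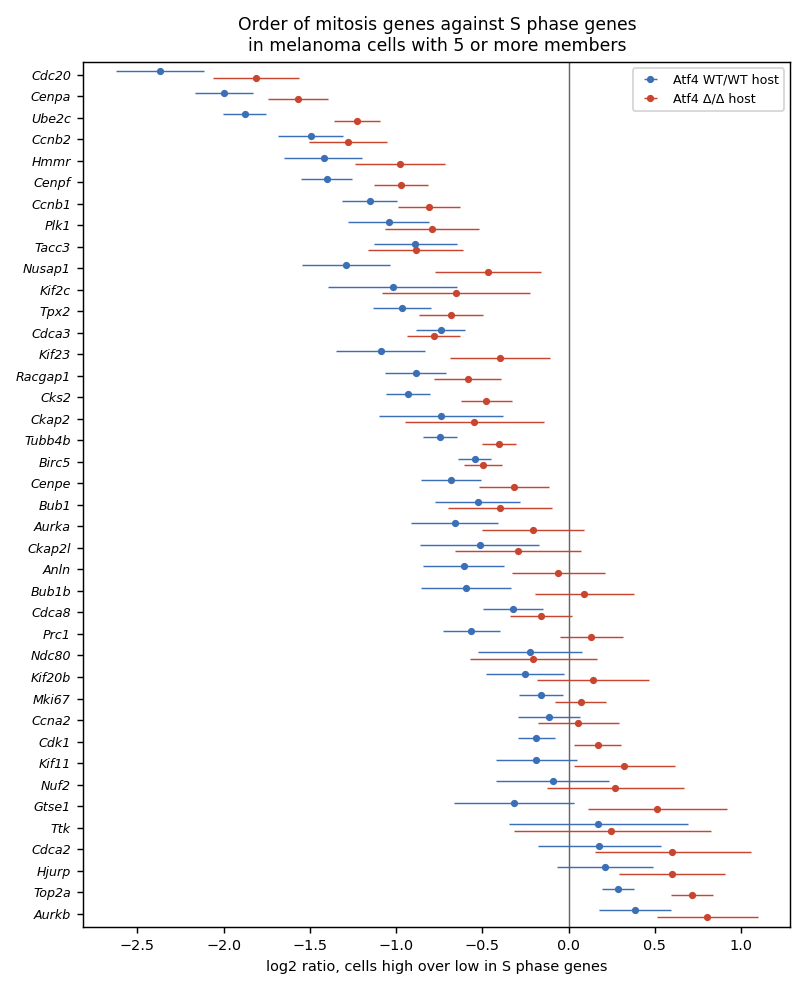
Log2 ratio of each mitosis gene between the melanoma cells highest and lowest in S phase genes (1 of 3 equal sets each), among cells with 5 or more mitosis genes at 2000 UMIs, for WT (blue) and KO (red) hosts with 95% counting intervals. Cdc20 stands furthest left at -2.37 and -1.81, and Aurkb furthest right at 0.38 and 0.81.

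Other genes were compared between melanoma cells with 5 or more members and cells with 0 members at the same depth. Of the 58 listed mitosis genes outside the 40, 55 had at least 20 UMIs in each library, and 50 of these were at least 1.5-fold higher in both, among them Smc4, a condensin subunit, at 311 against 38.5 CPM in WT and 246.5 against 40.1 CPM in KO. The counting interval lay above 0 in both libraries for 48. Over all 7334 genes with at least 20 UMIs, 10.4% were higher by that fold in both libraries and 4.19% lower. Cells with 5 or more members were the larger pool, so the minimum was passed mainly through them, and 39 of the 55 genes had 0 or 1 UMI in the cells with 0 members of a library. The count is therefore a description. Of the 33 measured S phase genes 29 were higher and 26 had intervals above 0 in both libraries. Rrm2, a subunit of ribonucleotide reductase, stood at 249 against 38.5 CPM in WT and 216 against 19.0 CPM in KO. Among regulators of the mitotic programme, 6 of 11 were higher and Nfya was the 1 that was lower, with Foxm1 at 45.6 against 3.85 CPM in WT (log2 ratio 3.57, 1.05 to 8.89) and 57.9 against 2.11 CPM in KO (4.78, 2.26 to 10.1), from 1 UMI in the cells with 0 members. For Nfya the intervals held 0, and for 4 of the 11 regulators they lay above 0 in both libraries. APC/C and checkpoint regulators, most of them constant subunits of the complex, had 5 of 19 higher and 0 lower. The interval lay above 0 in both libraries for 2 of the 19. The inhibitor gene Fbxo5 stood at 35.7 against 11.5 CPM in WT (1.63, 0.02 to 3.94). In KO it stood at 33.5 against 4.22 CPM (2.99, 1.06 to 6.07). These values rest on 3 and 2 UMIs in the cells with 0 members.

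The lists that were lower in the same cells were of other kinds. Of 17 hypoxia and glycolysis genes 11 were lower in both libraries and 0 higher, with a median of -0.87 in both, while the median of all genes was 0.07 in WT and 0.14 in KO. Car9, a carbonic anhydrase induced in hypoxia, stood at 44.5 against 162 CPM in WT and 64.4 against 211 CPM in KO, Bnip3 at 122 against 369 CPM and 131 against 287 CPM, and Hk2, a hexokinase, at 113 against 250 CPM and 89.5 against 211 CPM. ATF4 targets had 6 of 22 lower and 0 higher, with Nupr1 at 13.7 against 50.0 CPM and 70.1 against 289 CPM. Immediate early genes had 3 of 9 lower, Jun, Junb and Atf3, the last also counted among the ATF4 targets. Pigment genes had 1 of 12 lower, Tyr, and 0 higher, with medians of 0.10 and -0.07. Of this list, Pmel, Mlana, Dct, Tyrp1, Tyr, Slc45a2 and Trpm1 were also markers of the melanoma gate. Cell cycle inhibitors and G1 cyclins were split. Higher were 3 of 15, Cdkn3, Cdkn2c and Cdkn2d, and lower were 3, Ccnd2, Trp53inp1 and Btg1. The WT intervals of Cdkn2c, Cdkn2d and Btg1 held 0. In this list, intervals lay above 0 in both libraries for 1 gene, Cdkn3, and below 0 for 4. Among these 4 were Cdkn1a and Ccng1, which were not past the fold in both libraries. Intervals also lay below 0 in both for 10 hypoxia genes, 4 ATF4 targets, 2 immediate early genes and 2 pigment genes, and above 0 for 1 pigment gene.

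**Figure D5:**
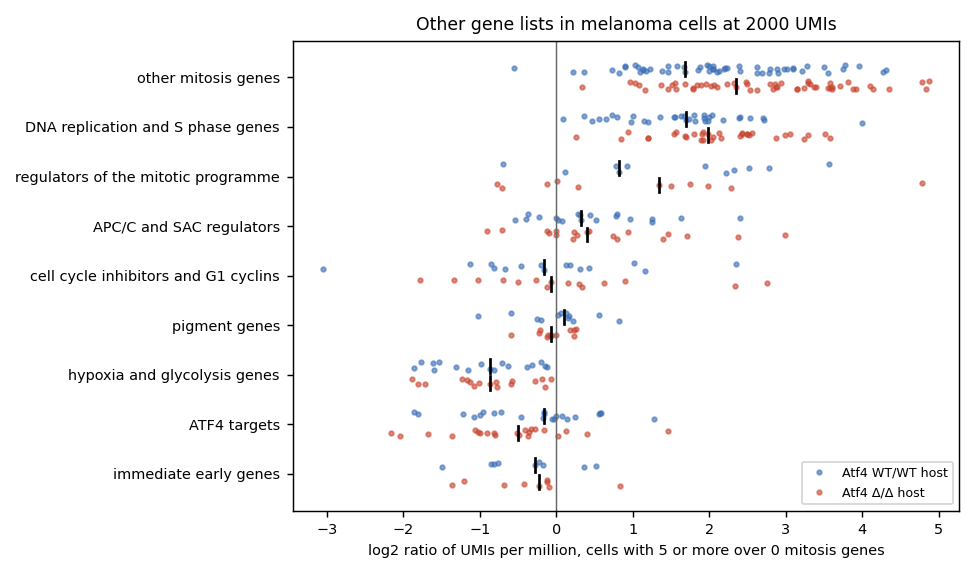
Log2 ratio of CPM between melanoma cells with 5 or more mitosis genes and cells with 0, at 2000 UMIs per cell, with 1 point per gene, WT in blue and KO in red, and black bars at the medians. Other mitosis genes and S phase genes lie mostly right of 0, and hypoxia genes left of it, with medians of -0.87 in both libraries.

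The same lists in all melanoma cells, KO over WT, showed the mitosis genes beside the rest of the cycle. Of all 10112 genes with at least 100 UMIs, 4892 were lower in KO, 2.85% were lower by 1.5-fold and 5.6% higher by it. Of 57 other mitosis genes 55 were lower in KO and 7 were past 1.5-fold, with Hmgb2, a chromatin protein, at 750 and 417 CPM (log2 ratio -0.85) and Kpna2, an importin, at 49.4 and 23.4 CPM (-1.08). Of 36 S phase genes all 36 were lower and 8 were past that fold, with the licensing factor gene Cdc6 at 23.1 and 12.5 CPM (-0.89) and Pcna at 122 and 85.6 CPM (-0.51). The regulators were divided, 8 of 15 lower and 0 past the fold, with Foxm1 at 36.3 and 34.8 CPM (-0.06) and Mybl2 (B-MYB) at 18.4 and 19.0 CPM (0.05). Inhibitors and G1 cyclins were divided too, 10 higher and 7 lower of 17, with 5 and 2 past the fold. Cdkn1a, the CDK inhibitor p21, was higher in KO at 141 and 350 CPM (1.31, 1.25 to 1.38), as were Ccnd1 at 90.5 and 170 CPM (0.91) and Ccnd2 at 331 and 550 CPM (0.73), whereas Cdk2 was lower at 182 and 101 CPM (-0.84), as was the inhibitor gene Cdkn2c at 46.6 and 29.5 CPM (-0.66). The inhibitor gene Cdkn1b was at -0.03 and Cdkn2d at -0.15. Of 20 APC/C and checkpoint regulators 14 were lower and 1, Fbxo5, was past the fold. All 12 pigment genes were lower, 4 of them past the fold, though most of this list were also gate markers, so they were measured in cells chosen by them. Higher were 12 of 17 hypoxia and 8 of 11 immediate early genes, 2 of each past the fold. The 2 immediate early genes were Atf3, also counted among the ATF4 targets, and Btg2, also counted among the inhibitors and G1 cyclins.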

How the data were processed

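Per the labels and methods, the authors made the deposited counts with Cell Ranger 3.1.0 on GRCm38 and analysed them with Seurat 3.2.1. Each matrix holds raw UMI counts per gene and barcode of 1 library (WT 6304 barcodes and 38417113 UMIs, KO 5474 and 38290024). Barcodes outside 200 to 5000 genes or above 7.5% of mitochondrial UMIs were left out. Cells of each class needed at least 4 markers of their class and at most 2 markers of each other host class. Melanoma markers had to make up at least 0.3% of UMIs in melanoma cells and less than 0.3% in host cells. The counts of a class were added up within each library and expressed as CPM. For shares, each cell was thinned to 2000 UMIs with a fixed seed. Intervals at 95% were exact (Poisson, Clopper-Pearson and conditional binomial), with 3 counts as the limit for 0. Ratios were called past 1.5-fold for genes with at least 100 UMIs over both libraries, or 20 in the comparison of melanoma cells with 5 or more members against 0. By rule, the members singled out were the 5 highest and 5 lowest by mean melanoma CPM, the 5 at each end of the melanoma KO/WT ratio and the 3 with the most UMIs in each host class. Other members and the list genes given as examples were picked after their values were seen. The members, lists and marker gates were chosen with earlier results of these data known. Scrublet, run in scanpy 1.11.5, called 96 WT and 47 KO doublets, which were kept and left out in an alternative. Scripts (Python 3.11.15, numpy 2.4.6, scipy 1.17.1) were tested on simulated data.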

Additional observations from a re-analysis of the deposited data

How the results depend on the processing

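No paired analysis was possible because a genotype had only 1 library, and for the same reason no library could be left out. Over 15 comparisons, 136 alternative values were computed and all were below 0, as in the report. Of these, 97 moved by less than the counting interval or the quartiles over members, and 39 moved further. The cause was not tested. For the melanoma KO/WT sum the values were -0.30 at a limit of 15% mitochondrial UMIs, -0.30 without mitochondrial and ribosomal protein genes and -0.34 with thinned cells, and the share without thinning was at -0.16. The host KO/WT sums were -1.08 in fibroblasts under a stricter gate and -0.23 in thinned endothelial cells. Cells with Xist and no Y-linked UMI gave -1.63 (share -1.97) in fibroblasts, -1.30 in endothelial cells and -1.27 in macrophages. The fibroblast share rests on 3 of 46 KO cells.

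Against melanoma cells, fibroblasts (WT, then KO where it moved) were at -0.61 and -1.27 with 15% mitochondrial UMIs, -0.84 without mitochondrial and ribosomal protein genes, -0.84 and -1.48 when thinned, -0.67 under the stricter gate, and -0.85 and -1.57 with melanoma RNA subtracted. Macrophages under these 5 alternatives were at -1.18 and -1.37, -1.46 and -1.64, -1.18 and -1.27, -1.23 and -1.39, and -1.55 and -1.75. Endothelial cells were at -0.24 and -0.12 when thinned, and at -0.34 in KO under the stricter gate.

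Alternatives chosen after seeing the data left out Tubb4b, which gave -0.36 in melanoma cells and -1.10 in fibroblasts for KO/WT, and -0.47 in WT endothelial cells, -1.38 in WT macrophages and -1.56 in KO fibroblasts against melanoma cells. Leaving out melanoma cells with a Nupr1, Atf5 or Trib3 UMI gave -0.14 for the sum, -0.0747 for the share and -0.14 for the median, and in these cells Cenpf, at 0.0197, and Cdca8, at 0.0510, changed sign. Among the 3 members whose interval held 0, Ckap2l was at 0.0376 in these cells and at 0.37 with thinned cells, against -0.15 in the report, and Hjurp and Tubb4b took both signs over the alternatives, from -0.020 to 0.11 and from -0.033 to 0.15. Of 70 values for single members, 61 moved by less than their counting interval. With 1 library per genotype, no depth of sequencing gives the spread between tumours.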

Other observations

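Barcodes outside the 4 classes also held the mitosis genes. At 2000 UMIs, 34.7% of 216 WT and 31.6% of 263 KO cells that entered no gate had at least 5 members, with intervals of 28.4 to 41.5 and 26.0 to 37.6. Of the barcodes over 7.5% mitochondrial UMIs with enough depth, 37.7% of 1314 in WT (35.0 to 40.4) and 30.03% of 1332 in KO (27.6 to 32.6) did, so these barcodes stood below the kept melanoma cells of their library. Barcodes with more than 5000 detected genes were few, and 18 of 21 in WT and 16 of 19 in KO had 5 or more members.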
